A study of Mus musculus with 59 samples.

Results

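RNA-seq was used to compare mouse embryonic stem cells (ESCs) in which both RING1A and RING1B carry a catalytic point mutation with ESCs of the same line before that state was induced. The line is homozygous for a *Ring1A* point mutation (*Ring1A*-pm) in every sample, holds a conditional point mutation of *Ring1B* (*Ring1B*-cpm) and expresses ERT2-Cre, a Cre recombinase that enters the nucleus when 4-hydroxytamoxifen (4-OHT) is added. By the sample labels, the 4 libraries were 2 of untreated ESCs, labelled ERT2-Cre;Ring1apm/pm;Ring1b, and 2 of ESCs treated with 4-OHT, labelled ERT2-Cre;Ring1apm/pm;Ring1bpm/pm, out of 59 libraries in the series. The untreated ESCs were therefore not wild type, since they already carried the *Ring1A* mutation, and the 4-OHT itself and the mutation of *Ring1B* cannot be told apart within the line. All ESCs were kept on mouse embryonic fibroblast (MEF) feeders in medium with LIF and inhibitors of FGFR, MEK and GSK3. The labels do not say that replicates came from separate cultures, so the *p*-values measure only the spread between these libraries.

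RING1A and RING1B are the E3 ligases of Polycomb repressive complex 1 (PRC1), which places a single ubiquitin on lysine 119 of histone H2A (H2AK119ub1). Each RING1 protein pairs with 1 of the PCGF proteins. Complexes with PCGF2 or BMI1 and a CBX protein are called canonical PRC1 and bind H3K27me3, the mark of PRC2, whereas variant complexes with RYBP or YAF2 hold most of the ubiquitin ligase activity. In ESCs, Polycomb complexes occupy CpG island promoters of developmental regulators that are silent in pluripotent cells. The study used the line to ask whether H2AK119ub1 takes part in silencing genes and in recruiting PRC2 when ESCs form embryoid bodies.

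Promoters are shown first, since CpG-rich promoters are the usual place of PRC1. They are the 250 bases before the RefSeq start of 3 of the genes with the highest and 2 of the genes with the lowest log2 fold change, read from RefSeq (GRCm38.p6) and located in mm9 by an exact match. Capitals mark CG dinucleotides. *Barx1* (chr13:48758155-48758404, plus strand) holds 40 CG, *Hoxd13* (chr2:74506032-74506281, plus strand) holds 31 and *Hoxa7* (chr6:52168573-52168822, minus strand, upstream of the RefSeq start, which lies inside the longer GENCODE gene) holds 7. All 3 were higher with 4-OHT. *Bdh2* (chr3:134943935-134944184, plus strand) holds 5 CG and *Myo1f* (chr17:33692402-33692651, plus strand) holds 4, and both were lower.
Barx1: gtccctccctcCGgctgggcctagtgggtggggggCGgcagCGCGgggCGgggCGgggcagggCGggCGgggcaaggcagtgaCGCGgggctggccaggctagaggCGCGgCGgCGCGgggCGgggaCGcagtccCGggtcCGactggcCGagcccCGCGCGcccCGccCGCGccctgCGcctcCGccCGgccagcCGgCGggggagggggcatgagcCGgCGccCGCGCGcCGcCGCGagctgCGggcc
Hoxd13: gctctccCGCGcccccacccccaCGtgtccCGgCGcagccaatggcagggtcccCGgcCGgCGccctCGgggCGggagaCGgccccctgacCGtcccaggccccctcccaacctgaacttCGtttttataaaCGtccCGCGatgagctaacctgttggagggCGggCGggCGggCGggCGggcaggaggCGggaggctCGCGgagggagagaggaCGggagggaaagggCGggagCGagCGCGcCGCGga
Hoxa7: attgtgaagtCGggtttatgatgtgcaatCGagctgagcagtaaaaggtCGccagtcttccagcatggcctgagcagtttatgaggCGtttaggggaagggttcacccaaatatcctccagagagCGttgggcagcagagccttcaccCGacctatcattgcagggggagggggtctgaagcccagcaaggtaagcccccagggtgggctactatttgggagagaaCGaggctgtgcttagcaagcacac
Bdh2: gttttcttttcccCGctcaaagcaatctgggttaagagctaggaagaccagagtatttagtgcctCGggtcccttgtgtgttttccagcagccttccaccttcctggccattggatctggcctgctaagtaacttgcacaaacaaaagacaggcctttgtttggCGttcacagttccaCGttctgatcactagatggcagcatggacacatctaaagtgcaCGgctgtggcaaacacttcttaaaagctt
Myo1f: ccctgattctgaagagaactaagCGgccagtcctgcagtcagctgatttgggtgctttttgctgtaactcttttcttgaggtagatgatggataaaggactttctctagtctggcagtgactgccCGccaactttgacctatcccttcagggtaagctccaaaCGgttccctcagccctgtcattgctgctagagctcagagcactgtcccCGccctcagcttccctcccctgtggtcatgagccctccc

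The values are TPM, transcript abundances scaled to the same sum in each library. Between 12223381 and 13463887 reads on genes lay behind each of the 4 ESC libraries, as recovered from the ratios of the TPM values up to a factor common to all libraries, and Pearson's r between the replicates on the log2(TPM + 0.1) scale was 0.97 in both groups. The 2 libraries with 4-OHT had at least 1 read on 18055 and 17848 genes, and the untreated libraries on 17343 and 17049. At equal depth these numbers were 17949 and 17741 against 17329 and 17049, so that more genes were detected with 4-OHT in each comparison of libraries. In bulk RNA, more cells of a type and more RNA per cell cannot be told apart.

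The transcripts of the mutated genes are given first. *Rnf2*, which encodes RING1B, was at 85.8 and 66.6 TPM in untreated ESCs and at 63.4 and 54.5 TPM with 4-OHT, a log2 fold change (log2FC, on the log2(TPM + 0.1) scale) of -0.36 ± 0.16 (SE, n = 2 libraries per group, as for every log2FC of this line) that did not pass the test (adjusted *p* = 0.317, limma with Benjamini-Hochberg adjustment over 20279 genes). *Ring1*, which encodes RING1A, was at 10.5 and 12.1 TPM in untreated ESCs and at 12.2 and 13.6 TPM with 4-OHT (adjusted *p* = 0.783). A point mutation leaves the transcript in place and cannot be seen in TPM, so these values do not check the genotype.

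**Figure D1:**
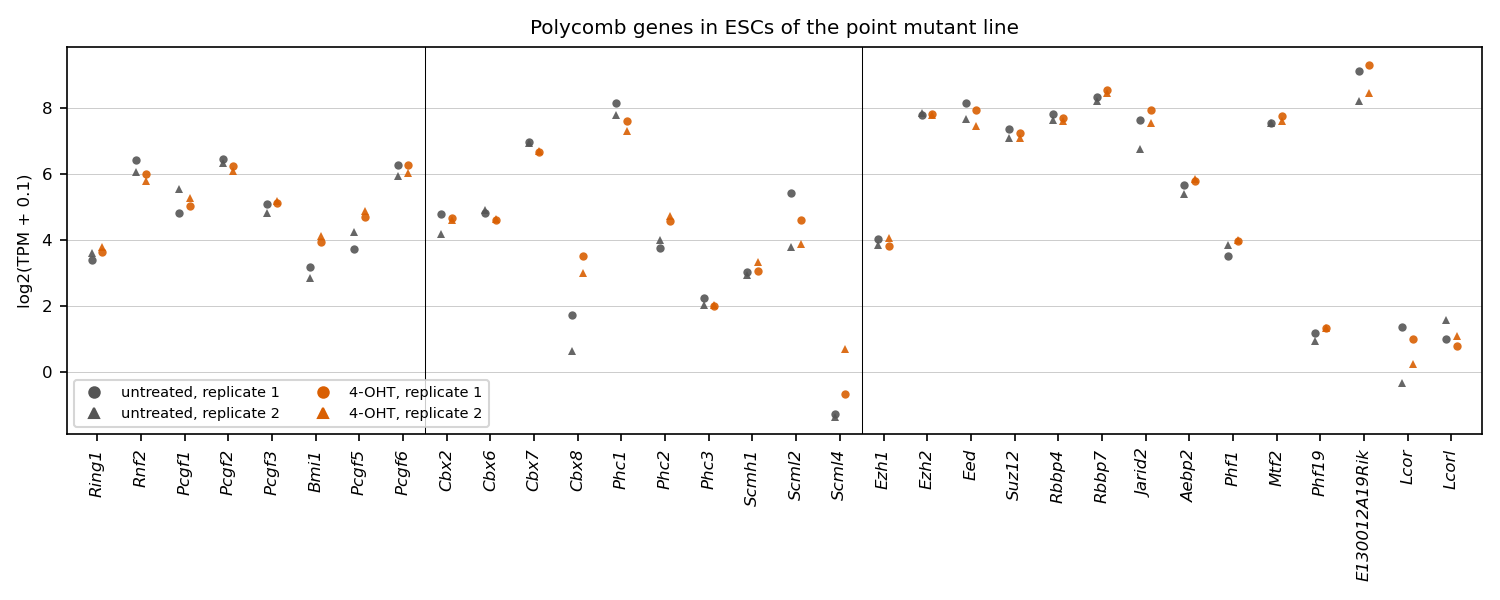
log2(TPM + 0.1) of genes of RING1 and PCGF proteins (left), canonical PRC1 subunits (middle) and PRC2 (right), leaving out 1 subunit gene, in each of the 4 point mutant ESC libraries, with grey for untreated, orange for 4-OHT, circles for replicate 1 and triangles for replicate 2. None of these genes passed the test, and *Cbx8* had the highest log2FC among those plotted, 2.09.

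None of the 8 genes of RING1 and PCGF proteins, none of the 11 of canonical PRC1 subunits and none of the 14 tested genes of PRC2 passed an adjusted *p* of 0.05, and the medians of their log2FC were 0.12, 0.15 and 0.13 (-0.03, 0.01 and -0.01 after median-of-ratios scaling). *Ezh2*, the methyltransferase of PRC2, was at 217 and 231 TPM in untreated ESCs and at 222 and 218 TPM with 4-OHT. *Cbx8*, a chromobox gene of canonical PRC1, was at 3.21 and 1.46 TPM against 11.4 and 8.0 TPM (log2FC 2.09 ± 0.43, adjusted *p* = 0.0536). *Bmi1*, which encodes PCGF4, was at 8.94 and 7.19 TPM against 15.3 and 17.3 TPM (log2FC 1.02 ± 0.21, adjusted *p* = 0.0545). The groups did not overlap for either gene, which was also so for 9197 of all genes tested. With limma voom on the recovered reads their adjusted *p* was 0.0392 and 0.0208. That fit was added after the data were seen and called more genes in all (857 against 475 higher). Among 21 partners of variant PRC1, 1 passed: *E2f6*, the DNA-binding repressor of the PCGF6 complex PRC1.6, was at 26.7 and 28.2 TPM in untreated ESCs and rose to 53.1 and 56.6 TPM (log2FC 1.00 ± 0.17, adjusted *p* = 0.0315). None of 15 genes of H2A deubiquitination passed (median log2FC -0.04, -0.19 after scaling).

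Across the transcriptome, far more genes rose than fell. With 4-OHT, 475 of 20279 genes tested were higher (2.34%) and 40 were lower (0.197%) at an adjusted *p* of 0.05, so that 92.2% of the 515 calls were higher. The 475 genes had a median of 0.763 TPM in untreated ESCs and 5.29 TPM with 4-OHT, and their median log2FC was 2.45, with a range from 0.63 to 5.44. Under 1 TPM in untreated ESCs were 257 of them (54.1%), against 36.5% of all genes tested, and 44 were at 0 in both untreated libraries. The 40 lower genes were expressed more highly, at a median of 33.1 TPM in untreated ESCs and 15.4 TPM with 4-OHT (median log2FC -1.44). The 2 groups did not overlap for any of the 515 genes, which was also so for 9197 of all genes tested.

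**Figure D2:**
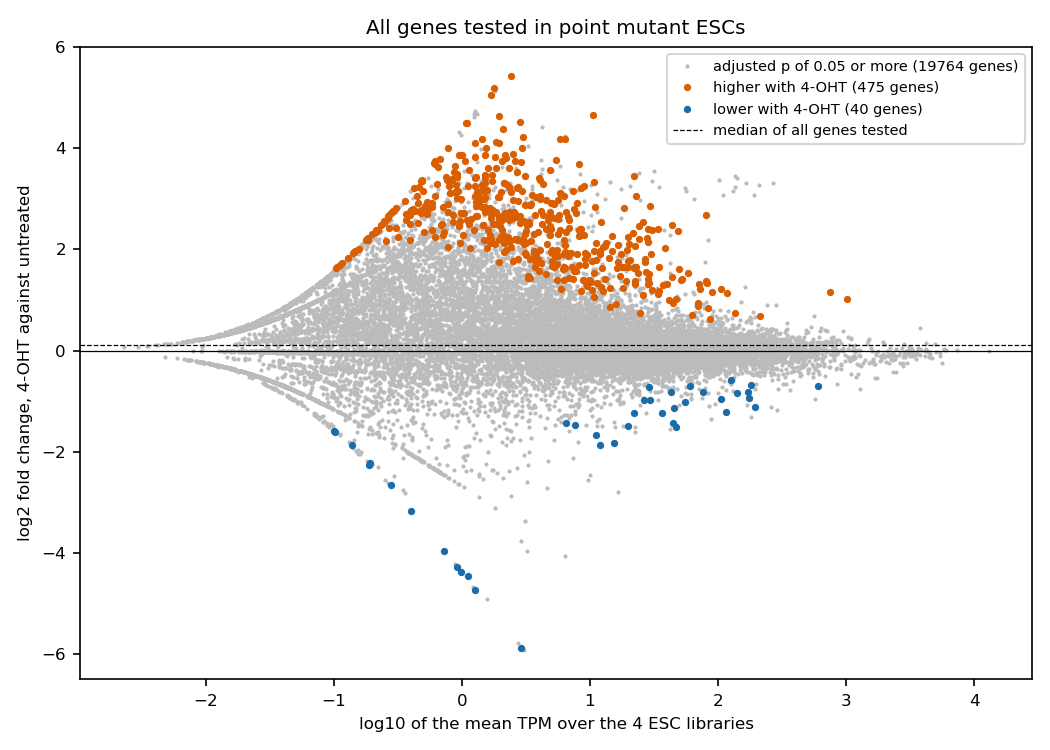
log2FC of 4-OHT treated against untreated point mutant ESCs (vertical axis) against log10 of the mean TPM of the 4 libraries, with 1 point per gene tested. Genes past an adjusted *p* of 0.05 are orange where higher (475) and blue where lower (40), and the dashed line is the median of all genes, 0.12.

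The median log2FC of all 20279 genes was 0.12, with a higher median for genes averaging 0.1 to 1 TPM (0.52) and 1 to 10 TPM (0.34) than for those under 0.1 TPM (0.00), from 10 to 100 TPM (0.05) and above 100 TPM (0.00). In all, 2976 genes (14.7%) had a log2FC above 1 against 511 (2.52%) below -1. Median-of-ratios scaling set the median to 0.00, and left 437 genes higher and 75 lower (85.4% of calls higher), with 419 and 36 of them shared with the unscaled counts. Quantile normalization gave 167 higher and 40 lower genes (80.7% higher), and limma voom on the recovered reads gave 857 and 76 (91.9% higher, with 438 and 28 shared). The medians of gene lists in ESCs below are to be read against 0.12 and, for lists of low level, against the 0.52 and 0.34 above. The value after median-of-ratios scaling is given with each. Quantile normalization gave smaller medians for the developmental lists. They were 1.68 for Hox genes, 1.16 for other homeobox genes, 0.59 for T-box, 0.74 for Forkhead, 0.25 for proneural and neural and 0.47 for ligand genes. The counts rest on the 4 libraries together, with the spread shared with embryoid body (EB) libraries of the line. Without any 1 of the 4 ESC libraries, most of the 475 higher and 40 lower genes no longer passed. The genes then called were in part others. A fit of the 4 ESC libraries alone gave 0 in each direction (3669 genes at an unadjusted *p* under 0.05). The counts within lists below rest on the 4 libraries in the same way: without any 1 of them, 0 or 1 of the Hox genes, 0 of the other homeobox genes, 0 to 2 of the trophoblast genes, 2 or 3 of the germline genes and 1 to 5 of the Group 2 genes were called higher.

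Homeobox genes were among the genes with the highest log2FC. *Barx1*, a homeobox gene of stomach mesenchyme and teeth, was at 0.608 and 0.805 TPM in untreated ESCs and rose to 16.9 and 23.8 TPM (log2FC 4.65 ± 0.42, adjusted *p* = 0.00768), and its means differed by 28.8-fold. *Pitx1*, a homeobox gene of the hindlimb, was at 0.135 and 0 TPM and rose to 2.82 and 4.91 TPM (log2FC 4.64 ± 0.57, adjusted *p* = 0.0151). *Hmx1*, a homeobox gene of eye and ear development, was at 0.220 and 1.04 TPM and rose to 12.1 and 9.82 TPM (log2FC 4.19 ± 0.70, adjusted *p* = 0.0305). Each of the 3 was at or under 1.04 TPM before 4-OHT and higher in both libraries with it, with no overlap. *Dlx6*, a distal-less gene of limb and craniofacial development, had no read in either untreated library and 12 and 20 reads with 4-OHT (1.68 and 2.74 TPM, adjusted *p* = 0.0143). *Hbq1a*, a globin gene, had none against 13 and 16 reads (3.23 and 3.89 TPM, adjusted *p* = 0.0124). *Gal*, the gene of the neuropeptide galanin, was at 0.474 and 0 TPM and rose to 4.51 and 6.5 TPM (log2FC 4.53 ± 0.84, adjusted *p* = 0.0408). Among the genes with the highest and lowest log2FC were also genes of short RNAs (3 of the 475 and 6 of the 40, such as *Mir6942* and *Mir493*), none of which had more than 3 recovered reads in any ESC library.

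Hox genes, which encode the homeodomain factors of the body axis and are a classical set of Polycomb targets, had called members in all 4 clusters. Of 39 Hox genes tested, 10 passed the test (25.6%), all higher (*Hoxa7*, *Hoxa9*, *Hoxa10*, *Hoxb7*, *Hoxb13*, *Hoxc9*, *Hoxd1*, *Hoxd9*, *Hoxd11* and *Hoxd13*). The median log2FC of the 39 was 2.17 (2.04 after median-of-ratios scaling), against 0.12 for all genes, and 34 were above 1. *Hoxd13*, the last gene of its cluster, was at 0.800 and 0.378 TPM in untreated ESCs and at 9.85 and 14.4 TPM with 4-OHT (log2FC 4.19 ± 0.40, adjusted *p* = 0.00882). *Hoxa7*, from the middle of its cluster, was at 0.255 and 0.160 TPM and rose to 4.08 and 7.59 TPM (log2FC 4.22 ± 0.51, adjusted *p* = 0.0146). *Hoxd1*, at the other end of the cluster of *Hoxd13*, rose from 0.356 and 0.336 TPM to 3.71 and 3.47 TPM (log2FC 3.05 ± 0.33, adjusted *p* = 0.0119). High values were thus seen at both ends of the *Hoxd* cluster. Not every Hox gene was higher: *Hoxb9*, the Hox gene with the lowest log2FC, was at 3.62 and 5.34 TPM against 1.89 and 4.84 TPM (log2FC -0.52 ± 0.60, adjusted *p* = 0.754), and *Hoxb8*, next to it, at 0.376 and 0.592 TPM against 0.397 and 0.499 TPM (adjusted *p* = 1). Both were among the genes whose libraries overlapped. *Hoxc13*, the Hox gene with the highest level in untreated ESCs, was at 6.67 and 6.18 TPM against 9.31 and 8.38 TPM (log2FC 0.45 ± 0.26, adjusted *p* = 0.469).

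**Figure D3:**
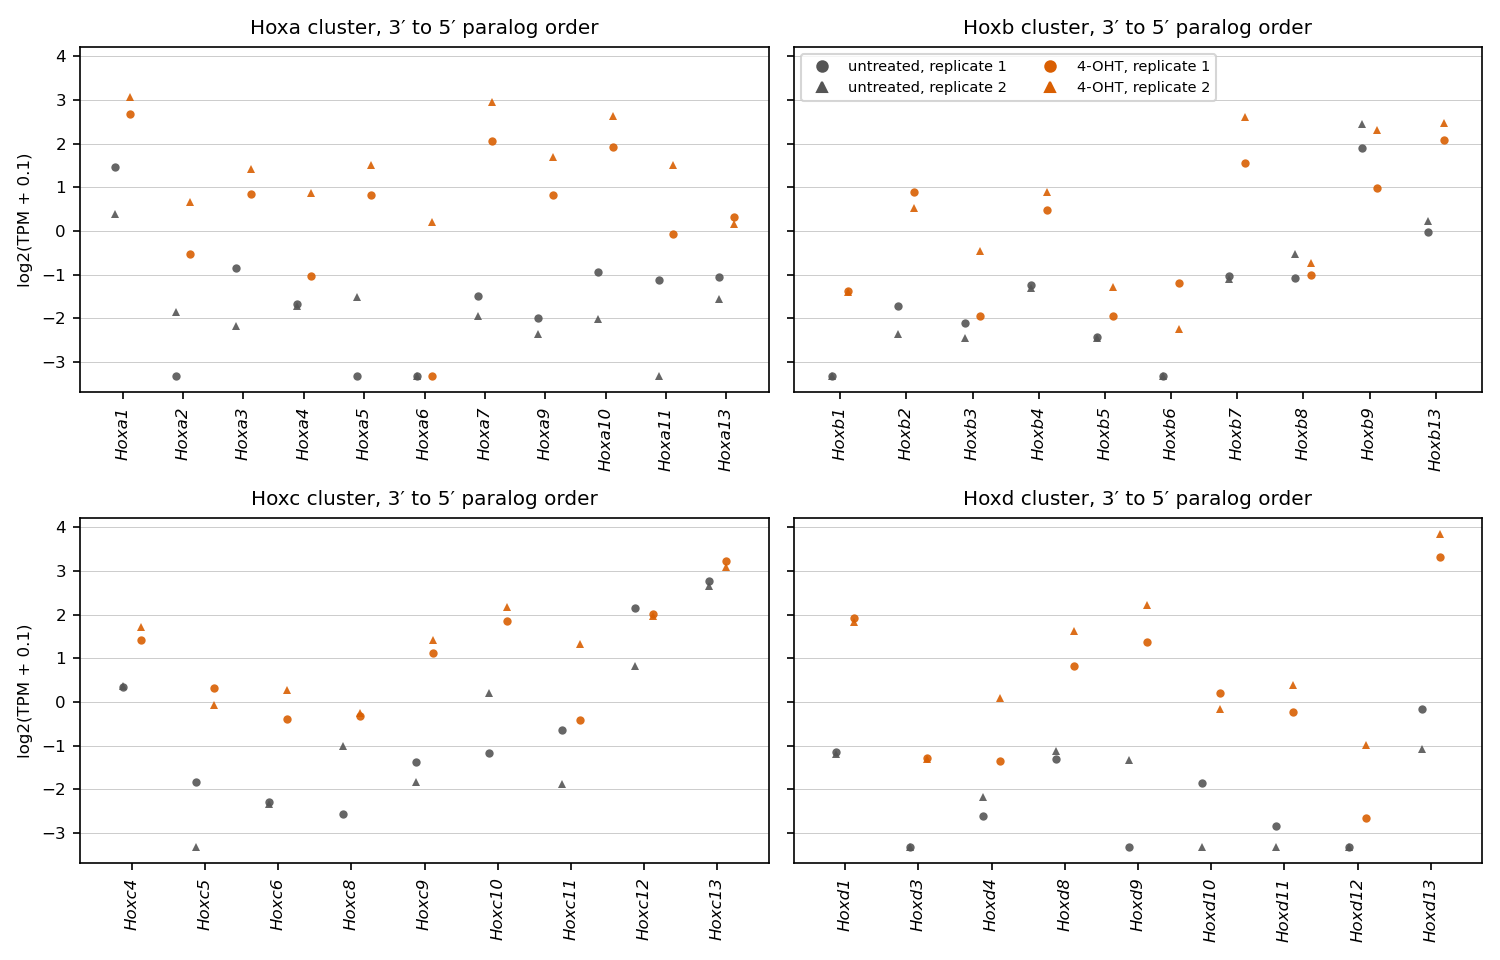
log2(TPM + 0.1) of each Hox gene in the 4 point mutant ESC libraries, with 1 panel per cluster and genes ordered by paralog number, grey for untreated, orange for 4-OHT, circles for replicate 1 and triangles for replicate 2. The orange points lie above the grey ones for most genes, and *Hoxb8* and *Hoxb9* are exceptions.

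Other families of developmental transcription factors had shares of called genes near that of the Hox genes. Of 102 homeobox genes outside the Hox clusters, 25 were higher (24.5%) and 0 were lower (median log2FC 1.63, 1.52 after scaling). *Lhx2*, a LIM-homeobox gene of forebrain and eye, rose from 0.470 and 0.555 TPM to 5.16 and 5.57 TPM (log2FC 3.16 ± 0.35). *Otx1*, a forebrain homeobox gene, rose from 0.235 and 0.166 TPM to 2.82 and 3.69 TPM (log2FC 3.48 ± 0.39). In each of these families the called genes were all higher. Of 17 T-box genes, 4 were higher (median log2FC 1.11, 1.05 after scaling): *Tbx1*, *Tbx15*, *Tbx18* and *Tbx20*. *Tbx15*, of limb and skin mesenchyme, rose from 0.232 and 0.263 TPM to 4.08 and 7.32 TPM (log2FC 4.00 ± 0.53, adjusted *p* = 0.0188). *Tbx1*, a gene of pharyngeal arch development, rose from 0.170 and 0.562 TPM to 5.77 and 5.19 TPM (log2FC 3.72 ± 0.49, adjusted *p* = 0.0187). Of 28 Forkhead genes, 6 were higher (median 1.48, 1.34 after scaling), and *Foxa1*, a pioneer factor of endoderm, rose from 0.520 and 0.442 TPM to 2.83 and 3.59 TPM (adjusted p = 0.0385 by limma). Of 9 *Pax* genes, 2 were higher (median 0.90, 0.87 after scaling), and *Pax1*, of the sclerotome, rose from 0.314 and 0.0593 TPM to 2.05 and 2.67 TPM (log2FC 3.25 ± 0.61). *Pax6*, of eye and neural tube, was at 0.0696 and 0.0986 TPM against 0.536 and 1.17 TPM and did not pass (adjusted *p* = 0.0551). The median level over the members of each family, the Hox genes included, lay between 0.125 and 0.289 TPM in untreated ESCs and between 0.731 and 2.34 TPM with 4-OHT.

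Genes of several germ layers and of extraembryonic lineages were among the higher genes. Of 28 proneural and neural genes, 4 were higher (median 0.81, 0.73 after scaling), and *Nes*, an intermediate filament gene of neural progenitors, rose from 6.46 and 6.11 TPM to 25 and 29.3 TPM (log2FC 2.09 ± 0.29). Of 24 primitive streak and mesoderm genes, 4 were higher (median 1.46, 1.32 after scaling), and *Twist1*, a bHLH gene of mesenchyme, rose from 2.54 and 1.63 TPM to 11.2 and 10.4 TPM (log2FC 2.35 ± 0.29). *T* (Brachyury), a defining gene of the streak, was at 2.35 and 0.765 TPM against 3.89 and 3.58 TPM (adjusted *p* = 0.298). Of 25 primitive endoderm genes, 4 were higher (median 1.13, 0.99 after scaling): *Gata4*, *Gata6*, *Col4a1* and *Sparc*. *Gata6*, which drives this lineage, rose from 2.13 and 1.52 TPM to 11 and 8.73 TPM (log2FC 2.38 ± 0.28, adjusted *p* = 0.0143), and *Gata4*, its relative, rose from 0.586 and 0.877 TPM to 4.51 and 7.69 TPM (log2FC 2.87 ± 0.42, adjusted *p* = 0.0245). *Sox17*, another endoderm factor, was at 0.485 and 0.344 TPM against 2.05 and 1.33 TPM (adjusted *p* = 0.128). Among 54 ligand genes of the Wnt, FGF, BMP and Hedgehog families, 6 were higher (median 0.98, 0.85 after scaling), and *Wnt7a* rose from 0.104 and 0.0986 TPM to 1.65 and 1.71 TPM (log2FC 3.14 ± 0.40).

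Trophoblast genes had a larger share of calls, 10 of 24 (41.7%, median log2FC 1.49, 1.36 after scaling). The called members were *Krt7*, *Krt8*, *Krt18*, *Igf2*, *Rhox6*, *Rhox9*, *Esx1*, *Hand1*, *Fgfr2* and *Id2*. The regulators *Cdx2*, *Elf5* and *Eomes* did not pass. *Krt18*, an epithelial keratin gene, rose from 8.40 and 8.83 TPM to 33.4 and 39.4 TPM (log2FC 2.06 ± 0.17, adjusted *p* = 0.00714), and *Krt8*, its partner, rose from 8.90 and 8.93 TPM to 31.4 and 29.7 TPM (log2FC 1.76 ± 0.17, adjusted *p* = 0.00882). *Cdx2*, which specifies trophectoderm, was at 1.00 and 0.219 TPM against 1.33 and 1.5 TPM (adjusted *p* = 0.405), and *Elf5* was at or under 0.602 TPM in every library (adjusted *p* = 0.329). *Eomes* was at 10.4 and 9.44 TPM against 10.5 and 11.9 TPM (adjusted *p* = 0.806). Keratin and placental homeobox genes were thus among the called members, as were *Hand1*, *Id2*, *Fgfr2* and *Igf2*.

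Germline genes with promoters of PRC1.6, which are silenced by the PCGF6 complex, had the largest share of the lists called, 14 of 30 higher (46.7%) and 1 lower (median log2FC 1.37, 1.22 after scaling). *Tex101*, which encodes a surface glycoprotein of germ cells, was at 5.03 and 4.60 TPM in untreated ESCs and at 44.0 and 38.0 TPM with 4-OHT, an 8.51-fold difference of the means (log2FC 3.06 ± 0.18, adjusted *p* = 0.00518). *Taf7l*, a testis paralog of a TFIID subunit, rose from 4.62 and 4.29 TPM to 29.6 and 35.0 TPM (log2FC 2.83 ± 0.20, adjusted *p* = 0.00714). *Mael*, of the piRNA pathway, rose from 27.5 and 17 TPM to 125 and 155 TPM (log2FC 2.68 ± 0.24, adjusted *p* = 0.00714). Each of these 3 genes was at 4.29 TPM or more in both untreated libraries. *Tex11*, a meiotic gene, rose from 8.62 and 9.41 TPM to 44.7 and 51.7 TPM (log2FC 2.40 ± 0.20), and *Ddx4*, the Vasa helicase of germ cells, rose from 13.2 and 18.7 TPM to 72.5 and 90.8 TPM (log2FC 2.36 ± 0.35). Other germline genes did not pass: *Dazl*, an RNA-binding regulator, was at 72.3 and 44.5 TPM against 73.5 and 27.6 TPM (adjusted *p* = 0.860), and *Sycp3*, of the synaptonemal complex, at 57.9 and 88.7 TPM against 69.7 and 80.8 TPM (adjusted *p* = 0.965). *Hsf2bp*, a recombination gene, fell from 56.8 and 46.0 TPM to 22.7 and 20.6 TPM (log2FC -1.24 ± 0.15, adjusted *p* = 0.0153).

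Genes of the state that resembles the embryo at its first cleavage had the highest median of all lists, and whether they passed depended on the fit. The median log2FC of 20 genes was 3.26 (3.12 after scaling) and 19 were above 1, but 0 passed limma on log2 TPM. With the replicate number as a block 18 passed, with only genes of a mean of at least 1 TPM in the fit 6 of 18 did, and with voom on the recovered reads 5 did. *Zscan4c*, the usual marker of this state, was at 60.0 and 20.3 TPM in untreated ESCs and at 551 and 209 TPM with 4-OHT (log2FC 3.28 ± 0.72, adjusted *p* = 0.0645, 0.0259 with voom). The summed TPM of the list was 582.8 and 291.2 in untreated ESCs and 3637 and 1362 with 4-OHT, with replicate 1 above replicate 2 in both groups. These genes lie in families of near-identical copies (*Zscan4*, *Usp17l*, *Tdpoz*), among which reads can be shared, so the members are not separate measurements.

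Pluripotency genes were lower in 1 case and otherwise did not pass. Of 18 naive pluripotency genes, 0 were higher and 1 was lower (median log2FC -0.24, -0.38 after scaling), and none of 10 core pluripotency genes passed (median -0.30, -0.45 after scaling). *Klf2*, a naive pluripotency factor, fell from 245 and 214 TPM to 139 and 104 TPM (log2FC -0.93 ± 0.17, adjusted *p* = 0.0419). *Sox2*, a core factor, was at 509 and 518 TPM against 384 and 340 TPM (log2FC -0.51 ± 0.14, adjusted *p* = 0.116), and *Nanog* at 836 and 788 TPM against 810 and 724 TPM (adjusted *p* = 0.953). *Sox2* was lower in both libraries with 4-OHT without passing, and *Nanog* overlapped. *Pou5f1*, which encodes OCT4, was at 1933 and 1696 TPM against 1649 and 1393 TPM (log2FC -0.26 ± 0.16, adjusted *p* = 0.494). Of 15 formative epiblast genes, 1 was higher, *Krt18*, and *Fgf5*, a defining formative gene, was at or under 0.703 TPM in every library (adjusted *p* = 0.723).

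**Figure D4:**
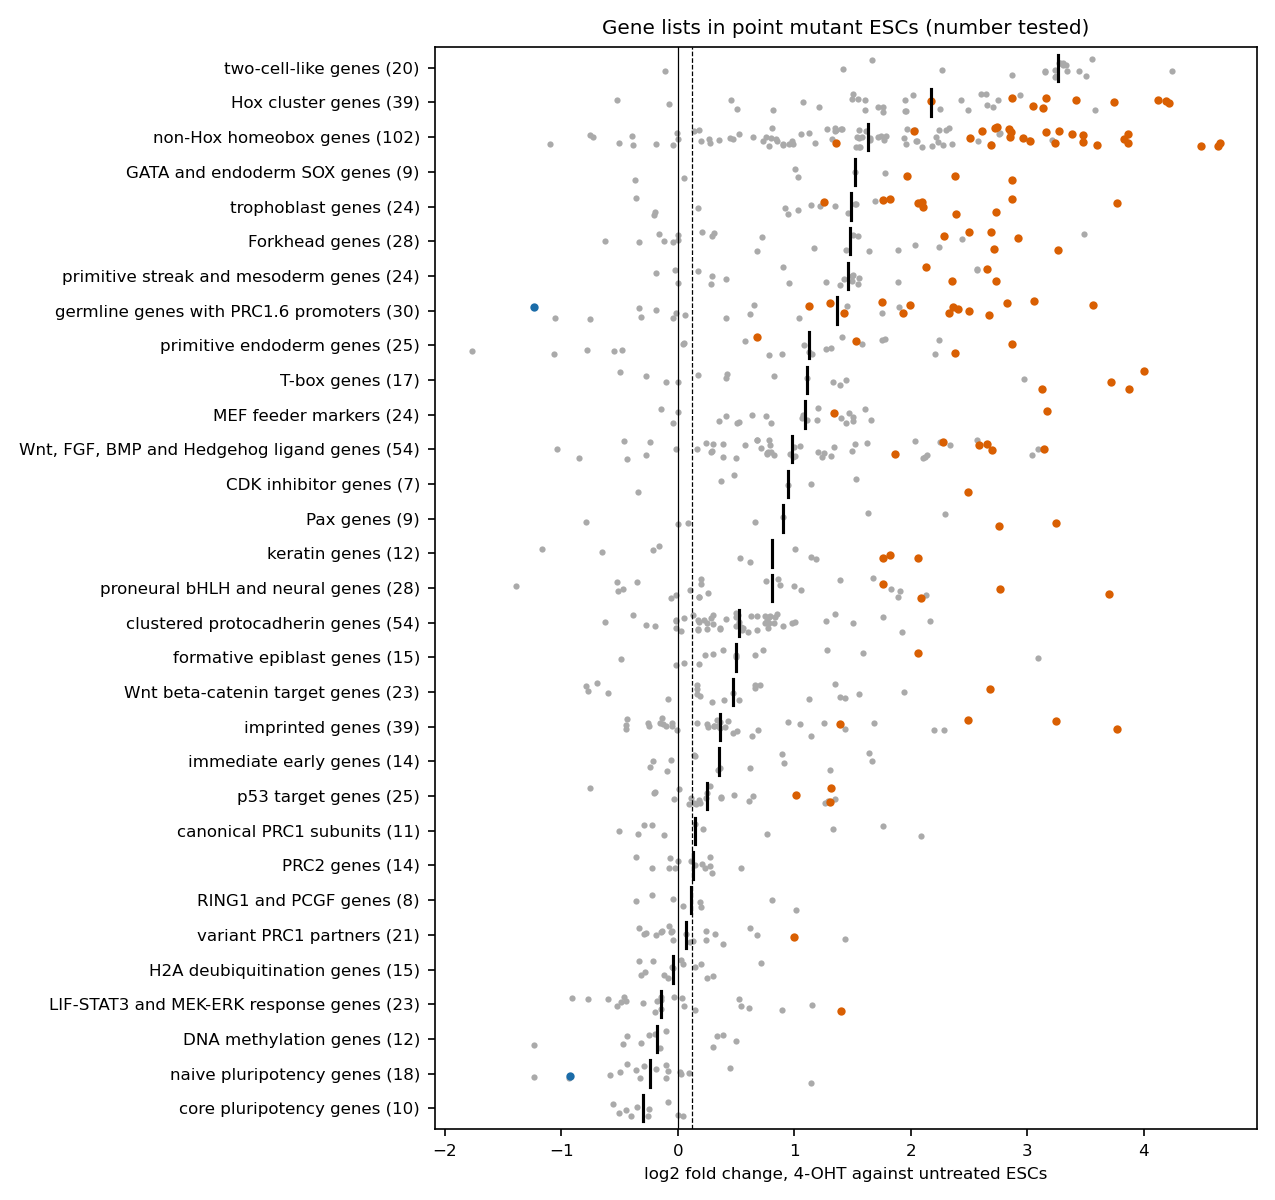
log2FC of 4-OHT treated against untreated point mutant ESCs for every gene tested in 31 lists (number tested in brackets), sorted by the list's median (black bar), with genes past an adjusted *p* of 0.05 in orange (higher) or blue (lower) and the others in grey. The dashed line is the median of all genes, 0.12, and the lists of developmental factors lie to its right while both pluripotency lists lie to its left.

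Smaller sets held single genes with clear changes. *Cdkn1c*, the imprinted cell cycle inhibitor p57, rose from 14.2 and 12 TPM to 65.5 and 83.6 TPM, a 5.68-fold difference of the means (log2FC 2.49 ± 0.18, adjusted *p* = 0.00714), as 1 of 7 CDK inhibitor genes and 1 of 4 called among 39 imprinted genes. *Igf2*, a growth factor gene expressed from the paternal allele, rose from 1.02 and 0.406 TPM to 10.7 and 9.66 TPM (log2FC 3.77 ± 0.41, adjusted *p* = 0.0116), and *Dlk1*, a paternally expressed Notch ligand gene, rose from 2.00 and 1.30 TPM to 14.1 and 18.5 TPM (log2FC 3.25 ± 0.33, adjusted *p* = 0.01). *Grb10*, an adaptor of growth factor receptors, was the last of the 4 (log2FC 1.39 ± 0.23). The median of the 39 was 0.36 (0.28 after scaling), and *Peg3* was at 6.15 and 3.80 TPM against 5.14 and 4.25 TPM (adjusted *p* = 1). *Cdkn2a*, the Ink4a-Arf gene and a known Polycomb target, was at 28.6 and 15.7 TPM against 58.1 and 65.2 TPM and did not pass (log2FC 1.53 ± 0.34, adjusted *p* = 0.0654). Of 25 p53 target genes, 3 were higher (*Pmaip1*, *Perp* and *Btg2*, median of the list 0.25, 0.10 after scaling). Of 12 keratin genes, 3 were higher (median 0.81, 0.69 after scaling): *Krt7*, *Krt8* and *Krt18*, which are also among the called trophoblast genes. Lists share members, so that *Krt18*, *Hand1* and *Igf2*, among others, were counted in more than 1 list. In 3 further lists 1 gene or none passed: 1 of 23 Wnt target genes, *Nkd1*, a feedback inhibitor of the pathway (list median 0.47, 0.33 after scaling), 1 of 23 LIF-STAT3 and MEK-ERK response genes, *Dusp5*, an ERK phosphatase (-0.14 and -0.29), and none of 14 immediate early genes (0.36 and 0.21). None of 12 DNA methylation genes (-0.17 and -0.32) and none of 54 clustered protocadherin genes (0.52 and 0.45) passed.

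Of 24 MEF feeder markers, 2 were higher and 22 did not pass. The 2 were the collagen genes *Col6a2* (0.222 and 0.210 TPM against 2.13 and 3.54 TPM) and *Col5a1* (6.92 and 5.92 TPM against 16.6 and 16.2 TPM), and 0 passed without any 1 of the ESC libraries. The median log2FC of the list was 1.09 (0.95 after scaling), and its summed TPM was 86.23 and 77.48 in untreated ESCs and 186.0 and 162.9 with 4-OHT. Of the 24 markers, 14 had a log2FC above 1 and 0 below -1, against 14.7% and 2.52% of all genes. With voom on the recovered reads, 6 of 23 were higher. Among the markers that did not pass, *Lum* was at 0 in all 4 libraries, *Dcn* was at or under 0.0795 TPM and *Prrx1* at or under 0.295 TPM. The part of feeder cells in the collagen and mesenchymal genes was not tested.

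The 40 lower genes came from no list beyond *Klf2* and *Hsf2bp*. *Accsl*, which encodes a protein like ACC synthase, was at 23.4 and 14.8 TPM in untreated ESCs and at 5.13 and 4.88 TPM with 4-OHT (log2FC -1.87 ± 0.32, adjusted *p* = 0.0326). *Myo1f*, an unconventional myosin gene, fell from 25.7 and 22 TPM to 8.42 and 5.20 TPM (log2FC -1.83 ± 0.31, adjusted *p* = 0.0315). *Bdh2*, a dehydrogenase gene, fell from 16.7 and 17.5 TPM to 6.02 and 4.63 TPM (log2FC -1.68 ± 0.22, adjusted *p* = 0.0178). All 3 kept a level of several TPM with 4-OHT. *Epb4.1l4a*, *Cpsf4l* and *Actn3*, a sarcomeric actinin gene, had log2FC of -1.51 ± 0.27, -1.48 ± 0.20 and -1.48 ± 0.26. Further genes, named after their values had been seen, were *Sall1*, a zinc finger factor (67.8 and 61.8 TPM against 22 and 25.9 TPM, adjusted *p* = 0.035), *Vim*, the vimentin gene, which fibroblasts also express (307 and 226 TPM against 140 and 105 TPM, adjusted *p* = 0.0385), and *Rara*, a retinoic acid receptor gene (37.1 and 33.3 TPM against 17.1 and 18.7 TPM, adjusted *p* = 0.0385). Of the 40, 13 were at 0 in both libraries with 4-OHT and 12 had under 10 recovered reads over the 4 libraries, as had 21 of the 475 higher genes.

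Genes bound by RING1B were compared by the 3 groups that the study defined from ChIP of the *Pcgf1* line: Group 1, where binding increased from ESCs to EBs, Group 2, where it stayed, and Group 3, where it decreased. Of the 475 higher genes 174 were in a group (36.6%), against 7.77% of all genes tested, and of the 40 lower genes 0 were. Group 2 had 163 of 1357 genes higher (12%) and 0 lower, with a median log2FC of 0.95 (0.84 after scaling), and 661 were above 1 against 13 below -1. Among them was *Mfsd2a*, a lipid transporter gene that rose from 1.16 and 1.16 TPM to 9.91 and 11.7 TPM (log2FC 3.11 ± 0.27, adjusted *p* = 0.00714). Group 3 had 9 of 66 higher (13.6%, median 0.93, 0.83 after scaling). *Esrp1*, an epithelial splicing factor of Group 3, rose from 1.59 and 0.710 TPM to 12.3 and 18.5 TPM (log2FC 3.70 ± 0.47, adjusted *p* = 0.0171). Group 1 had 2 of 153 higher (1.31%), *Nes* and the matricellular gene *Cyr61*, with a median of 0.31 (0.19 after scaling and 0.02 with quantile normalization). The Group 1 genes *Klf4*, *Tbx3* and *Pdgfa* did not pass, and their libraries overlapped: *Klf4*, a naive pluripotency factor, was at 262 and 333 TPM against 298 and 334 TPM (adjusted *p* = 0.945), *Tbx3*, another, at 181 and 161 TPM against 175 and 145 TPM (adjusted *p* = 0.909), and *Pdgfa*, a growth factor gene, at 113 and 89.1 TPM against 120 and 75.1 TPM (adjusted *p* = 0.963). The Group 3 genes *Sox4*, an HMG-box factor (adjusted *p* = 0.629), and *Grhl2*, a Grainyhead factor of epithelia (adjusted *p* = 0.928), did not pass either. The median untreated level was 5.24 TPM in Group 1, 0.438 TPM in Group 2 and 1.39 TPM in Group 3.

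CG dinucleotides were counted on mm9 in windows of 300 bases around the start of each gene (CG reads the same on both strands, and 2.32% of the windows of all genes tested held none). The windows of higher genes held a median of 18 CG, those of lower genes 12 and those of all genes tested 15, and 73.9%, 51.5% and 63.2% of them held at least 10. The gap to all genes lay among genes of low level: under 1 TPM in untreated ESCs, higher genes had a median of 15 CG and all genes 6, while from 1 TPM upwards both had 19. The CpG-rich promoters of *Barx1* and *Hoxd13* printed above are of the first kind, and that of *Hoxa7*, as given by its RefSeq start, is not CpG-rich.

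EBs, the aggregates formed in 48 h without LIF and inhibitors, were compared next, to see whether the same genes respond. In EBs of the line (2 libraries with and 2 without 4-OHT, of the same genotypes), 763 genes were higher (3.76%) and 155 lower (0.764%) with 4-OHT. Of the 475 genes higher in ESCs, 263 were also higher in EBs (55.4% of the ESC list and 34.5% of the EB list). In EBs 446 had the same sign, for which the share over all genes was not counted. The median log2FC of the 475 in EBs was 1.72, against 0.104 for all genes tested. Both effects came from 1 fit with a shared spread per gene, so genes of low spread pass more easily in both. Of the 40 lower genes 12 were also lower in EBs (30% and 7.74% of the lists). *Barx1*, *Hoxd13* and *Tex101* had log2FC of 4.22, 3.48 and 3.33 in EBs. The effect in EBs minus that in ESCs passed the test higher for 1 gene (0.00493%) and lower for 1 gene (0.00493%). The lower one was *Car4*, a carbonic anhydrase gene that rose from 0.892 and 0.843 TPM to 4.50 and 4.17 TPM in ESCs and fell from 125 and 92.8 TPM to 21.5 and 21.2 TPM in EBs (difference -4.53 ± 0.31, adjusted *p* = 0.00904). The higher one, *Mir7045*, had at most 2 recovered reads in any library of the line. *Wt1*, the Wilms tumor gene, rose from 0.429 and 0.101 TPM to 4.95 and 4.51 TPM in ESCs and was at 15.3 and 10.6 TPM against 6.58 and 5.60 TPM in EBs, and its difference did not pass (adjusted *p* = 0.107). The log2FC of *Klf4*, *Tbx3* and *Pdgfa* in EBs was 1.19, 2.05 and 1.82 (adjusted *p* = 0.048, 0.0099 and 0.0143), and the difference from ESCs did not pass for these genes (adjusted *p* = 0.712, 0.107 and 0.244). List medians in ESCs and EBs were 0.31 and 0.74 for Group 1 and 0.93 and 0.01 for Group 3. They were 0.5 and -1.02 for formative epiblast and -0.24 and 0.59 for naive pluripotency genes. Group 2 (0.95 and 0.93), trophoblast (1.49 and 1.51) and germline genes (1.37 and 1.36) had like medians in both. Differences of lists were not tested.

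ESCs of the *Pcgf1* line, in which the same drug deletes the floxed *Pcgf1* gene (4 libraries without and 5 with 4-OHT), were compared to set the point mutation beside the loss of 1 variant complex. In *Pcgf1*-KO ESCs 95 of 21378 genes were higher (0.444%) and 93 lower (0.435%). Of the 475 genes higher in point mutant ESCs, 18 were also higher in *Pcgf1*-KO ESCs (3.79% of one list and 18.9% of the other). The median log2FC of the 475 there was 0.16, against -0.005 for all genes. Tested in 1 fit, the effect in point mutant minus that in *Pcgf1*-KO ESCs was higher for 194 genes (0.907%) and lower for 13 (0.0608%). Of the 475 genes, 87 were among the 194. The 475 were chosen by the same point mutant values that enter this difference, so the overlap is not a separate result. *Tex11* had a difference of 2.93 (adjusted *p* = 0.0004), *Igf2* of 3.74 (adjusted *p* = 0.00165) and *Esx1*, a placental homeobox gene, of 3.58 (adjusted *p* = 0.00131). Of the 30 germline genes, 10 were among the 194, against 0.907% of all genes. Of the 1357 Group 2 genes 49 were, and of the 102 homeobox genes outside the Hox clusters 9 were. The germline genes had a median log2FC of -0.48 in *Pcgf1*-KO ESCs, where 0 were called. Their median difference, 1.95, was therefore above their median in point mutant ESCs, 1.37. Other genes rose in both: *Barx1* had a log2FC of 2.59 in *Pcgf1*-KO ESCs (adjusted *p* = 0.0317), *Krt8* of 1.27 (adjusted *p* = 0.0013) and *Tbx1* of 2.26 (adjusted *p* = 0.0341), and their differences did not pass (adjusted *p* = 0.528, 0.767 and 0.712). The lines, their depth and their number of libraries differ along with the genotype, and these cannot be told apart.

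**Figure D5:**
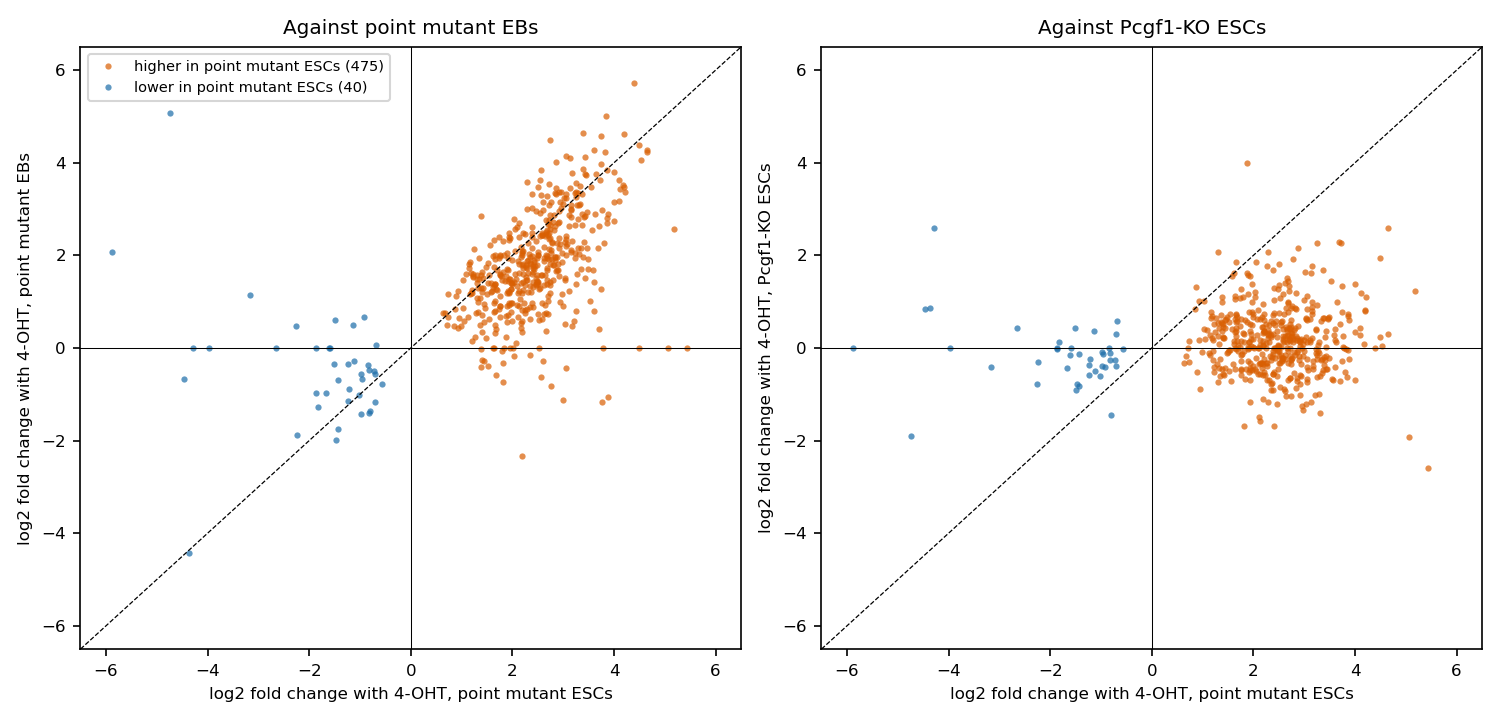
log2FC with 4-OHT in point mutant ESCs (horizontal axes) against that in point mutant EBs (left) and in *Pcgf1*-KO ESCs (right), with 1 point for each of the 475 higher (orange) and 40 lower (blue) genes and a dashed line of equal effects. Most orange points lie above 0 on the left (446 of 475), and on the right they are spread around a median of 0.16.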

How the data were processed

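The authors sequenced poly(A) RNA, counted reads on exons with STAR (2.5.2b) on mm9 and deposited TPM per gene symbol, each library summing to 1000000; how the TPM were made from the reads is not given in the sources used here. The TPM were found to be whole multiples of 1 read per gene and library for 100% of 21378 genes (tolerance 0.01). For each gene the smallest whole numbers in the ratios of its TPM were taken as its reads. Recovered reads are therefore minima where all reads of a gene share a divisor, as can be the case for genes seen in few libraries. The 1075 genes seen in 1 library only have at least 1 read.

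In R (4.3.3), log2(TPM + 0.1) of the 8 libraries of the line was fitted with limma (3.58.1), 4 groups and an empirical Bayes trend, for genes above 0 in at least 1 library. Benjamini-Hochberg adjusted *p* under 0.05 was called. EBs minus ESCs was a contrast of this fit, and the difference from *Pcgf1*-KO ESCs came from 1 fit of the 27 libraries of both lines. Alternatives were a pseudocount of 1, a filter on the mean TPM, 2 other scalings, a replicate block, only the ESC libraries, leaving out each library and limma voom on genes with at least 10 recovered reads. Gene starts for CG counts were those of GENCODE vM1 on mm9, with windows for 95.2% of higher, 82.5% of lower and 87.5% of all tested genes, since RefSeq windows matched only 72.0% of the higher genes. Groups 1 to 3 were matched by symbol from the study's list. No 2 libraries held identical values.

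Some single genes are not reported here. Genes named were the Polycomb genes, 5 genes shown in the paper, the 12 highest and 12 lowest log2FC among called genes that averaged 1 TPM or more in ESCs with or without 4-OHT, up to 4 called genes per list in each direction by *p*, members of short lists, and the largest differences of effects. The gene lists, the members and the tests were chosen with earlier results of these data known.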

Additional observations from a re-analysis of the deposited data

Results flagged for a closer look

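The difference between the effects of 4-OHT in EBs and in ESCs of the point mutant line passed the test for 2 genes, with 2 libraries per group. *Car4* had a difference of -4.53 on the log2 scale, being higher with 4-OHT in ESCs and lower in EBs. *Mir7045* had a difference of 9.81, with at most 2 recovered reads in any library of the line.

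Between point mutant and *Pcgf1*-KO ESCs, the genes with the highest differences of effects were *Duoxa2* (4.45), a maturation factor of a dual oxidase, *A230065H16Rik* (4.39), *Pitx1* (4.34), *Mir468* (4.32) and *Mei1* (4.30), a meiotic gene. Those with the lowest were *Mir7035* (-5.22), *Prph* (-3.04), the gene of the neuronal filament peripherin, *Epb4.1l4a* (-1.93), *Adat2* (-1.32), a tRNA deaminase gene, and *Atf4* (-1.02), a stress response factor. *Atf4* was at 177 and 281 TPM in untreated and at 114 and 99.3 TPM in 4-OHT treated point mutant ESCs, where its own change did not pass (adjusted *p* = 0.0733, limma). *Prph* rose in *Pcgf1*-KO ESCs (log2FC 2.39, adjusted *p* = 0.00092), and its change in point mutant ESCs did not pass (adjusted *p* = 0.675). *Mir7035* and *Mir468* rest on few reads.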

How the results depend on the processing

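No call changed direction under the alternatives run, but medians near 0 did: that of RING1 and PCGF genes, 0.12, was -0.03 with median-of-ratios scaling, that of PRC2 genes, 0.13, was -0.01 with it and -0.06 with quantile normalization, and that of all genes, 0.12, was -0.01 with quantile normalization. Against 475 higher and 40 lower genes in ESCs, quantile normalization gave 167 higher, a fit of the ESC libraries alone 0 and 0, voom on the recovered reads (added after the data were seen, as was leaving out genes of short RNAs) 857 and 76, voom with median-of-ratios scaling 128 lower, median-of-ratios scaling 75 lower, and leaving out 1 library 8 to 45 higher and 4 to 22 lower, with fewer samples in the fit and a lone sample taken to vary like the other groups. For EBs minus ESCs, against 1 and 1, a pseudocount of 1 gave 5 and 8, both forms of voom 0 and 0, the table without genes of short RNAs 0 higher, and leaving out 1 library 0 to 36 and 0 to 32. Against 194 and 13 in point mutant minus *Pcgf1*-KO ESCs, a pseudocount of 1 gave 592 and 34, a mean of at least 1 TPM 73 and 3, quantile normalization 70 and 40, voom 318 higher, median-of-ratios scaling 24 lower, voom with it 22 lower, and leaving out 1 library 131 to 287 and 16 to 104.

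The median of Group 1, 0.306, was 0.143 with a pseudocount of 1, 0.251 with a mean of at least 1 TPM, 0.187 with median-of-ratios scaling, 0.017 with quantile normalization, 0.340 with voom, 0.205 with scaled voom and 0.240 to 0.347 without 1 library. That of Group 2, 0.955, was 0.381, 0.841 (median-of-ratios scaling), 0.499 (quantile), 1.001 (only ESC libraries), 1.311, 1.175 (scaled voom) and 0.941 to 1.038, and that of Group 3, 0.932, was 0.408 (pseudocount of 1), 0.469 (quantile), 1.122 (voom) and 0.845 to 1.041. The median of all genes with a mean of at least 1 TPM, 0.096, was 0.054 to 0.155 without 1 library. The cause of these changes was not tested.

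With the replicate number as a block, 1188 genes were higher and 138 lower in ESCs, 3 were higher in EBs minus ESCs, 797 higher and 114 lower in point mutant minus *Pcgf1*-KO ESCs, and 18 of 20 *Zscan4*-type genes were higher. The libraries share only a number in the labels. r between the deviations of same-numbered libraries from their group means was 0.38 for the ESC groups and 0.11 to 0.38 over the pairs of groups of the line. Called results for named genes numbered 95, and they included differences of effects beside changes in ESCs. Of these, 89 were kept with median-of-ratios scaling, 69 with quantile normalization, 91 with a pseudocount of 1 and 95 with the block. Most were not kept without 1 ESC library, and 0 of 83 were in the fit of the ESC libraries alone.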

Other observations

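Among genes with a position on mm9, the share called higher ran over the autosomes from 1.23% on chromosome 10 to 4.78% on chromosome 12 and was 3.03% on chromosome X, and these differences were not tested. It was 3.95% on chromosome 6 and 3.14% on chromosome 2. Chromosome 6 holds the *Hoxa* and chromosome 2 the *Hoxd* cluster. Chromosome 11, with the *Hoxb* cluster, was at 2.18% and chromosome 15, with the *Hoxc* cluster, at 2.73%. Chromosomes 12 and 19 (3.16%) hold no Hox cluster.

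By mean level over the 4 ESC libraries, the calls higher were 5 of 2823 genes under 0.1 TPM, 82 of 3761 from 0.1 to 1 TPM, 266 of 5235 from 1 to 10 TPM, 116 of 6805 from 10 to 100 TPM and 6 of 1655 above 100 TPM. Of the 40 lower genes, 16 had a mean of 10 to 100 TPM and 9 a mean above 100 TPM.

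*Fos*, an immediate early gene, differed more between replicates than between groups: it was at 3.56 and 47.2 TPM in untreated ESCs and at 9.18 and 44.0 TPM with 4-OHT, and *Egr1* was at 19.8 and 91.1 TPM against 23.7 and 92.7 TPM. Replicate 2 was the higher one for both genes in both groups.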
